A study of Mus musculus with 8 samples.

Results

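Voltage-gated sodium and calcium channels were examined in cell lines of mouse small cell lung cancer (SCLC), a neuroendocrine tumor whose cells carry many genes of excitable cells. The members were the protein-coding genes of the deposited count table whose symbols name a sodium channel α or β subunit (the Scn genes) or a calcium channel α1, α2δ, β or γ subunit (Cacna, Cacnb and Cacng), which gave 39 of the 22691 genes. The epithelial sodium channel genes (Scnn1) were left out. By class there were 10 sodium α, 3 sodium β, 10 calcium α1, 4 calcium α2δ, 4 calcium β and 8 calcium γ genes.

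The data were read counts per gene from RNA-seq of 8 libraries, 4 from cells given an empty vector and 4 from cells overexpressing mouse Nfib, which encodes a DNA-binding protein of the nuclear factor I type. All 8 came from cells of primary lung tumors that carried the invCAG-Mycl-Luc transgene and were Rb1-/-, on a mixed FVB/n and 129/Ola background, so Mycl and the loss of Rb1 were shared by both groups. The libraries formed 4 pairs, each with 1 empty vector and 1 Nfib library of the same culture. Pair 1 was Lmyc1 old, pair 2 Lmyc3 old, pair 3 Lmyc3 new and pair 4 Lmyc5 new, where old and new are words of the labels that no source used here explains. Pairs 2 and 3 carry the same line name, and nothing says that the libraries of an arm came from separately grown cultures beyond these 4, so the p-values speak of the spread among these libraries and no further. Each culture is a derived cell line and not a sample of tumor tissue.

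Voltage-gated channels are built around 1 large pore-forming protein, called α in sodium channels and α1 in calcium channels, that opens when the membrane depolarizes. Sodium channels carry the upstroke of the action potential, and calcium channels admit the calcium that triggers secretion of granules and vesicles. The β, α2δ and some γ subunits are auxiliary: they move the pore to the membrane and tune its gating. In neuroendocrine cells of the lung and in SCLC, both kinds of channel are known for linking electrical activity to the release of hormones and peptides.

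Library totals ran from 21815264 to 29934021 counts. Where a gene had 0 counts, a level of up to 3 counts could not be told from 0, which was at most 0.138 CPM (counts-per-million), counting error only. The targeted gene was higher in every Nfib library than in its partner: Nfib went from 71.9 to 1281 CPM in pair 1, from 399 to 4672 in pair 2, from 163 to 2929 in pair 3 and from 487 to 3583 in pair 4. All 9 neuroendocrine markers were measured well enough to be tested, and their summed level was 3054 to 4937 CPM in empty vector libraries and 2160 to 4577 CPM in Nfib libraries. In the paired DESeq2 test Nkx2-1, a lung lineage factor, fell (-0.39 ± 0.11, adjusted p of 0.0122) and 0 of the 9 rose, where the test called 2.20% of all genes lower and 1.86% higher. Nkx2-1 passed in 2 of the 4 fits on 3 pairs, and its adjusted p was 0.198 in edgeR with the replicate block. Markers of leukocytes summed to at most 0.802 CPM, those of endothelium to at most 6.73 CPM, those of fibroblasts to at most 12.3 CPM and those of muscle to at most 22.9 CPM in any library. The endothelial sum was at most 0.519 CPM in empty vector libraries and reached its maximum with Nfib, where Kdr was higher in both Lmyc3 pairs. Kdr went from 0 to 0 CPM in pair 1, from 0.0944 to 5.74 in pair 2, from 0.0371 to 6.47 in pair 3 and from 0 to 0.156 in pair 4. Pecam1 was at most 0.425 CPM and Cdh5 at most 0.0451 CPM. Among fibroblast markers Pdgfra reached 12.1 CPM, with Col1a1, Col1a2 and Col3a1 at most 0.222 CPM. Of the muscle genes, Des reached 22.05 CPM, Tnnt2 5.15 CPM and Acta1 0.935 CPM, and Ckm and Myh6 at most 0.111 CPM. The part of such cells in the channel values was not tested. Markers of mature neurons summed to between 24.3 and 144 CPM, and those of airway and alveolar epithelium to between 2.48 and 12.7 CPM. Of the neuronal genes, Gad1 ran from 1.56 to 137 CPM and Rbfox3 from 0.630 to 51.6 CPM, and Slc17a7 was at most 0.556 CPM.

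Most of the family passed the filter on low counts, 28 of the 39 genes, as did 13380 of all 22691 genes. Passing did not require a high level, since Cacna2d4 passed at a mean of 0.631 CPM. Of the 39 genes, 26 had at least 1 count in all 8 libraries. Of the 11 that did not pass, Scn4a, Scn7a, Scn10a, Scn11a, Scn2b, Cacna1s, Cacng1, Cacng3, Cacng6 and Cacng8 had at most 8 counts in any library. As background, Scn4a and Cacna1s are the sodium and calcium channel pores of skeletal muscle, and Cacng1 is the muscle γ partner of Cacna1s. Scn10a and Scn11a belong to sensory neurons, and Scn2b is a β subunit found widely in brain. The 28 tested genes were 6 sodium α, 1 sodium β, 9 calcium α1, 4 α2δ, 4 β and 4 γ genes. Because they passed on their own level, they are not all members of the family, and counts below are over these 28.

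**Figure D1:**
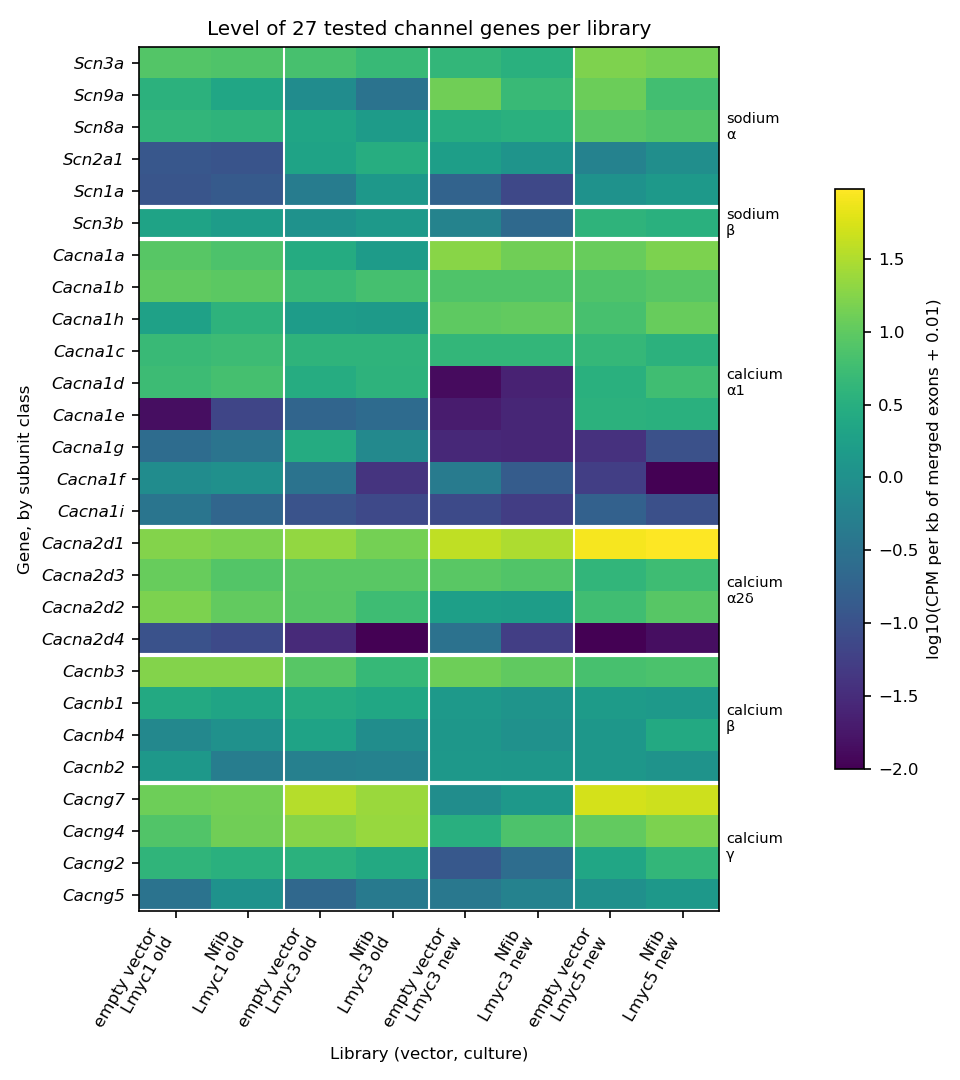
Levels of 27 tested channel genes in each of the 8 libraries, as log10 of CPM per kilobase of merged exons plus 0.01, with rows grouped by subunit class and white lines between cultures. The 2 libraries of a culture look alike in most rows, Cacna2d1 is the brightest row in Lmyc5 new, and Cacna1d is dark in both Lmyc3 new libraries only.

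Promoter sequence was set beside this division between genes that passed the low-count filter and genes that did not. As background, vertebrate promoters rich in CpG dinucleotides are common among widely used genes. RefSeq promoter windows on GRCm38.p6, from 250 bases before to 50 bases after a start, were matched by symbol for 29 of the 39 genes and gave 40 windows. Windows are shown for 3 genes that passed and 1 that did not, in lower case with every CpG in capitals. Cacna2d1 was the α2δ gene of highest level per length, Cacna1d was transcribed in 3 of the 4 cultures, Scn9a was the gene that fell with Nfib, and Scn4a stayed at or below 4 counts. The windows are chr5:15934441-15934740 (plus strand) for Cacna2d1, chr14:30353437-30353736 (minus strand) for Cacna1d, chr2:66634913-66635212 (minus strand) for Scn9a and chr11:106349341-106349640 (minus strand) for Scn4a.
Cacna2d1: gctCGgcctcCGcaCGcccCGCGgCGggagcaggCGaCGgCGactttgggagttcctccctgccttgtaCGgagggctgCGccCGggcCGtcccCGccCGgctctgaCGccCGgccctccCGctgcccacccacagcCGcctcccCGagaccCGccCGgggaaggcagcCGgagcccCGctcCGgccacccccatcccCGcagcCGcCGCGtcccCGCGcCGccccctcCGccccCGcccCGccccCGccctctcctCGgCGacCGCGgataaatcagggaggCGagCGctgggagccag
Cacna1d: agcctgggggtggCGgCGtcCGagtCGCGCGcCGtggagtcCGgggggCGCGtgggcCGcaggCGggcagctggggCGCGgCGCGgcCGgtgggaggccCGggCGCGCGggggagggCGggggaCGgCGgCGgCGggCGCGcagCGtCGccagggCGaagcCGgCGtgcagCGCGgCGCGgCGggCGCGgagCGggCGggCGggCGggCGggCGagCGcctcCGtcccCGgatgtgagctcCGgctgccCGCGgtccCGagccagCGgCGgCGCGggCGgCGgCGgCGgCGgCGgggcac
Scn9a: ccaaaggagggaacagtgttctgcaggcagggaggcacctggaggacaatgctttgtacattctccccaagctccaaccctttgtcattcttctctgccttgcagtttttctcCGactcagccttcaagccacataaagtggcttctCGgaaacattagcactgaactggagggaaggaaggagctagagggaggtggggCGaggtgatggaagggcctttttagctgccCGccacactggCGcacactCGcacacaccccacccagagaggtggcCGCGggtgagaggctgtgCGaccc
Scn4a: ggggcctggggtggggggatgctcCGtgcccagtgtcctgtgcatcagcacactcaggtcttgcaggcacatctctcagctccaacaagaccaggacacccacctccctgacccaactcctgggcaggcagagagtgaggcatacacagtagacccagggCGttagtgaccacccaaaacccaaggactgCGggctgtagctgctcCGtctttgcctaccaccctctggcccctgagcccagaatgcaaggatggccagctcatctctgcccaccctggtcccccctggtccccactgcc

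The Cacna1d window held 63 CpG, the Cacna2d1 window 42, the Scn9a window 9 and the Scn4a window 4, which is 1.18, 0.92, 0.37 and 0.14 times the number that each window's C and G content gives. Another RefSeq start of Cacna1d, at chr14:30491107-30491406 (minus strand), had 4 CpG and a ratio of 0.34, so the gene has a start of each kind. Over the 31 windows of 20 tested genes the median ratio was 0.60, and 15 windows (48.4%) lay above 0.6. None of the 9 windows of 9 genes that were not tested lay above 0.6, and their median was 0.20. Some windows lay inside the annotated gene, so a start further upstream was not examined for them. The Scn4a window ended at 106349640, while the gene on the minus strand begins at 106353288. For Cacng8 the window began at 3393792 and the gene at 3390683. A tested gene, Cacna1e on the minus strand, likewise had its window end at 154726170 and its gene begin at 154884501. Over all 32851 windows of the table the median was 0.384, and 35.8% lay above 0.6. Whether the difference between tested and untested genes exceeds that of other gene families was not tested.

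Letters of known sites were counted on both strands. The full nuclear factor I site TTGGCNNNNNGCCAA was in 0 of the 40 windows and in 12 of all 32851 (0.0365%). Its first part alone, TTGGC, which the full site contains, was in 17 windows (42.5%) and in 46.7% of all. CAGCTG, an E-box, was in 13 windows (32.5%) against 16.3% of all. GGGCGG, a GC box, was in 16 (40.0%) against 35.7%, and TATAAA was in 2 (5.0%) against 13.6%. The Scn9a window shown above had none of these 5 strings. Cacng4, the gene that rose with Nfib, had no matched window and so was not searched. A match or its lack describes these 300 bases and no more.

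Sodium channel pores were examined first. Levels of different genes are set beside each other here only on the scale of CPM per kilobase of merged exons. Scn3a, a pore of embryonic brain and endocrine cells, led the 10 α genes in Lmyc3 old with 5.65 CPM per kb (44.00% of the class) and in Lmyc5 new with 15.1 CPM per kb (39.4%). Scn8a, a pore of neuronal axons, had 1.87 and 8.55 CPM per kb in the same cultures. Scn9a, a pore of sensory and neuroendocrine cells, had 0.579 CPM per kb in Lmyc3 old and 8.98 in Lmyc5 new, below Scn3a in both. In Lmyc3 new the order was the reverse, with Scn9a at 8.98 CPM per kb (26.1%) and Scn3a at 3.80 (11.1%).

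Scn3a was the most even of these 3 pores, by the ratio of its highest to its lowest culture mean. It went from 100.4 to 94.3 CPM in pair 1, from 82.1 to 58.8 in pair 2, from 52.9 to 41.9 in pair 3 and from 200.2 to 176 in pair 4, so the Lmyc5 new libraries were the highest and those of Lmyc3 new the lowest. Scn8a went from 65.8 to 61.5 CPM in pair 1, from 34.8 to 24.1 in pair 2, from 47.4 to 53.3 in pair 3 and from 143 to 126 in pair 4, with the same culture highest and Lmyc3 old lowest. Scn9a, whose values are given with the Nfib comparison, was lowest in Lmyc3 old.

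Scn2a1 and Scn1a, both pores of brain neurons, were patchier. Scn2a1 went from 1.42 to 1.26 CPM in pair 1, from 25.9 to 38.6 in pair 2, from 21.4 to 14.7 in pair 3 and from 7.30 to 11.7 in pair 4, lowest in Lmyc1 old. Scn1a was above 5 CPM in both libraries of Lmyc3 old and Lmyc5 new and at most 1.93 CPM in the remaining 4. Among β subunits, which attach to the pore and also act as adhesion molecules, Scn3b passed the filter. It went from 10.9 to 8.49 CPM in pair 1, from 5.66 to 7.34 in pair 2, from 3.19 to 1.21 in pair 3 and from 21.3 to 18.5 in pair 4.

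The calcium channel pores were broader in kind. Cacna1a and Cacna1b, the P/Q-type and N-type pores that trigger release at nerve terminals, together held between 40.1% and 64.2% of the summed α1 level in a library. With Cacna1c, the L-type pore of heart and smooth muscle, and Cacna1h, a T-type pore that opens at small depolarizations, the share was between 67.5% and 99.3%. Cacna1b led in Lmyc1 old (9.88 CPM per kb, 29.6%) and in Lmyc3 old (5.70 CPM per kb, 30.4%). With the longest transcript or the coding length, Cacna1a or Cacna1c came first in Lmyc1 old and Cacna1c in Lmyc3 old. Cacna1a led in Lmyc3 new (15.8 CPM per kb, 41.4%) and in Lmyc5 new (13.4 CPM per kb, 31.3%), where Cacna1h held 26.6% and 20.99%.

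Cacna1c and Cacna1b had the smallest ratios of highest to lowest culture mean among the 28 tested genes, although both differed between cultures in the edgeR test described below (adjusted p of 0.0466 and 0.00882). Cacna1c went from 104 to 114 CPM in pair 1, from 80.3 to 81.3 in pair 2, from 91.8 to 89.4 in pair 3 and from 93.3 to 75.5 in pair 4, and its culture means differed by at most 1.35-fold. Cacna1b went from 102 to 93.9 CPM in pair 1, from 49.9 to 63.3 in pair 2, from 74.7 to 75.9 in pair 3 and from 76.7 to 86.8 in pair 4, with culture means within 1.73-fold. Cacna1a varied more, from 101 to 85.2 CPM in pair 1, from 32.01 to 17.03 in pair 2, from 214 to 147 in pair 3 and from 130.2 to 176 in pair 4, and was lowest in Lmyc3 old. Cacna1h, from 18.3 to 36.7 CPM in pair 1, from 15.1 to 14.05 in pair 2, from 94.98 to 104 in pair 3 and from 63.3 to 112 in pair 4, was above 60 CPM in all 4 libraries labelled new and below 40 CPM in all 4 labelled old.

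Cacna1d, an L-type pore of endocrine cells and pacemakers, was transcribed in 3 cultures and nearly absent from the fourth. It went from 66.6 to 80.9 CPM in pair 1, from 37.01 to 46.6 in pair 2, from 0.0371 to 0.172 in pair 3 and from 42.8 to 71.8 in pair 4. The Lmyc3 new libraries held 1 and 4 counts of Cacna1d, near or below the limit of 3 counts. Dcp1a, an mRNA decapping gene whose span on chromosome 14 overlaps that of Cacna1d, stood at 33.5 and 32.9 CPM in the same libraries and between 32.9 and 42.8 CPM over all 8. In these bulk samples, fewer cells with a transcript and less transcript per cell cannot be told apart.

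Cacna1e, the R-type pore, was abundant in 1 culture. It went from 0.102 to 1.44 CPM in pair 1, from 4.81 to 5.92 in pair 2, from 0.259 to 0.431 in pair 3 and from 89.1 to 83.2 in pair 4, so that only the 2 Lmyc5 new libraries exceeded 6 CPM. Cacna1g, a T-type pore, was highest in Lmyc3 old and went from 2.51 to 3.31 CPM in pair 1, from 28.3 to 7.48 in pair 2, from 0.185 to 0.172 in pair 3 and from 0.270 to 0.896 in pair 4. Cacna1f, a retinal L-type pore, had at most 8.84 CPM, and Cacna1i, the remaining T-type pore, at most 3.35 CPM.

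Among auxiliary calcium channel subunits 1 gene led most classes. Cacna2d1, the α2δ protein that binds gabapentin, held 41.8%, 52.4%, 77.03% and 88.1% of the α2δ level per kilobase in cultures 1 to 4. It went from 215 to 196 CPM in pair 1, from 265 to 176 in pair 2, from 483 to 381 in pair 3 and from 1033 to 1179 in pair 4, highest in both Lmyc5 new libraries. Cacna2d3 went from 99.8 to 72.6 CPM in pair 1, from 79.4 to 78.1 in pair 2, from 79.3 to 68.9 in pair 3 and from 36.2 to 47.6 in pair 4, and its culture means lay within 2.06-fold. Cacna2d2 went from 124 to 84.3 CPM in pair 1, from 69.5 to 43.4 in pair 2, from 13.9 to 13.1 in pair 3 and from 45.9 to 68.7 in pair 4, and both Lmyc3 new libraries were below the others. Cacna2d4 reached at most 2.89 CPM.

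Cacnb3, a cytoplasmic β subunit of neuronal and endocrine channels, held between 54.8% and 83.0% of its class per kilobase in every library. It went from 69.5 to 69.5 CPM in pair 1, from 35.5 to 18.6 in pair 2, from 51.2 to 41.3 in pair 3 and from 26.9 to 28.8 in pair 4. Cacnb1, Cacnb2 and Cacnb4, the remaining β genes, had levels between 5.09 and 23.6 CPM over the 8 libraries. Exons of A430018G15Rik overlap 15.99% of the Cacnb4 exon length, so the reads of these genes cannot be told apart there.

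Several γ genes are better known as the transmembrane partners (TARPs) of AMPA-type glutamate receptors than as calcium channel subunits, Cacng2, Cacng4, Cacng5 and Cacng7 among them. Cacng4 and Cacng7 together held between 82.7% and 94.97% of the γ level per kilobase in a library. Cacng7 led in Lmyc1 old, Lmyc3 old and Lmyc5 new with 46.7%, 54.97% and 73.9%, and Cacng4 in Lmyc3 new with 74.7%. Cacng7 went from 30.9 to 32.7 CPM in pair 1, from 84.3 to 58.4 in pair 2, from 2.15 to 3.15 in pair 3 and from 130.1 to 114 in pair 4, so the Lmyc3 new libraries were far below the others. Cacng2 went from 21.8 to 18.4 CPM in pair 1, from 19.3 to 14.2 in pair 2, from 0.630 to 1.38 in pair 3 and from 12.3 to 23.9 in pair 4 and was likewise lowest in Lmyc3 new. The neighbours of Cacng7 on chromosome 7, Cacng8 and Cacng6, stayed at or below 5 counts in every library, also where Cacng7 was above 100 CPM.

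**Figure D2:**
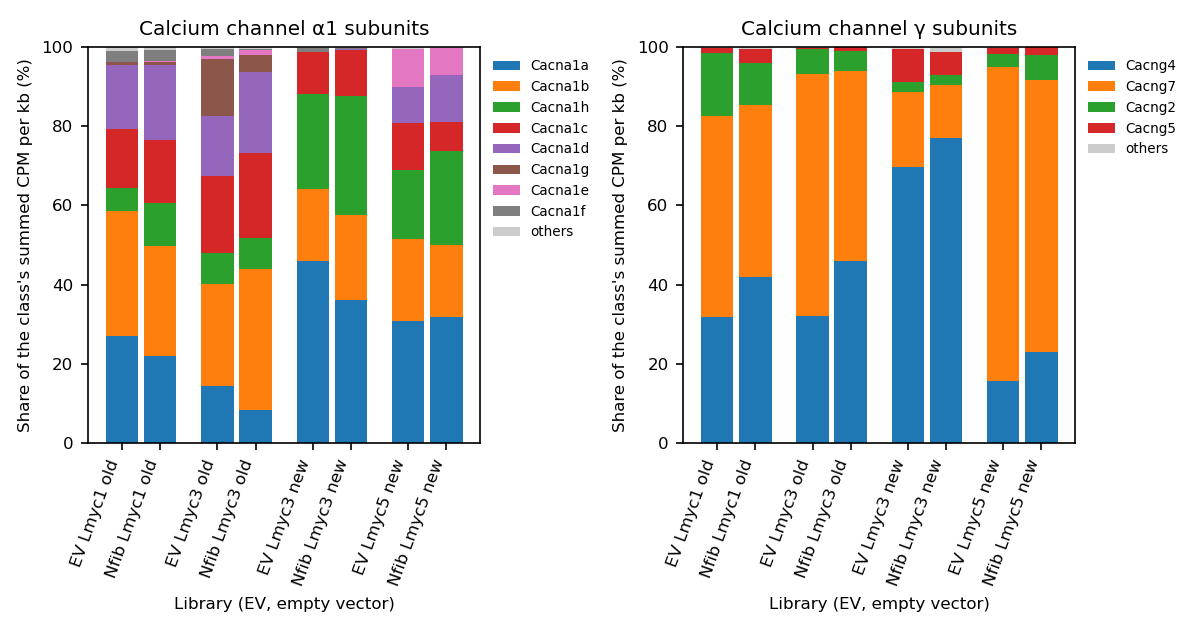
Share of each gene in the summed CPM per kilobase of the calcium α1 genes (left) and the calcium γ genes (right) in each library, in percent, stacked to 100. Cacna1d is missing from the Lmyc3 new bars on the left, and on the right Cacng4 is the widest band in Lmyc3 new and Cacng7 in the Lmyc5 new bars.

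The levels of these genes differed between cultures. Each culture was represented by its 2 libraries, and edgeR's quasi-likelihood test of the culture terms, with the vector in the model and Benjamini-Hochberg adjustment over all 13380 genes tested, called 26 of the 28. This share has to be read against the background, since the same test called 76.7% of all genes tested (10256). Cacnb2 (adjusted p of 0.111) and Cacnb4 (0.255) were not called. Adjusted p-values of the called members ran from 8.75e-05 to 0.0466, the last that of Cacna1c.

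The size of the differences was summarised as the ratio of the highest to the lowest culture mean. Its median was 7.09 over the 28 channel genes and 1.92 over all genes tested. The ratio exceeded 10 for 11 of the 28 (39.3%) and for 14.3% of all genes. Low counts enlarge such ratios, and no test of these shares was made. With 0.1 CPM added to both means, the channel genes that differed more than 4-fold between a given 2 cultures were between 25.0% and 42.9% of the 28, against between 7.58% and 14.4% of all genes.

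The widest of these 6 contrasts was between the cultures of 1 line name, Lmyc3 old and Lmyc3 new, with 12 of the 28 (42.9%) against 14.4% of all genes. Of the 12, 7 were higher in Lmyc3 old (Cacna1d, Cacna1e, Cacna1g, Cacna2d2, Cacng2, Cacng7 and Scn1a) and 5 in Lmyc3 new (among them Cacna1a, Cacna1h and Scn9a). Culture means of Scn9a were 37.4 CPM in Lmyc1 old, 7.40 in Lmyc3 old, 115 in Lmyc3 new and 115 in Lmyc5 new (adjusted p of 0.000204 in the edgeR culture test). Those of Cacng7 were 31.8 CPM in Lmyc1 old, 71.3 in Lmyc3 old, 2.65 in Lmyc3 new and 122 in Lmyc5 new (0.000195). Between these 2 cultures the pores Scn9a, Cacna1a and Cacna1h were thus higher where Cacng7, Cacng2 and Cacna1d were lower, which did not hold for Lmyc5 new, where Scn9a, Cacna1a, Cacna1h and Cacng7 were all high. With 1 culture of each label, what old and new stand for cannot be told apart from any other difference between these cultures.

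The study's own comparison set Nfib against empty vector. The edgeR quasi-likelihood test without the pairs called 0 of the 28 channel genes and 0 of all 13380. At an unadjusted p under 0.05 it had 0 channel genes and 83 genes in all. The same test with the replicate block also called 0, with 6 of the 28 and 2012 of all genes at an unadjusted p under 0.05. DESeq2's Wald test within pairs (the replicate number as a block), used in what follows for the words rose and fell, called 1 channel gene lower and 1 higher at a Benjamini-Hochberg adjusted p under 0.05. The background of that test was 2.20% of genes called lower (294) and 1.86% called higher (249), so 1 of 28 in each direction is near the background. The median log2 fold change was -0.08 over the 28 and -0.0062 over all genes. Estimates below 0 were found for 17 of the 28 (60.7%) and for 51.5% of all genes.

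Scn9a, which encodes NaV1.7, was the channel gene that fell (ENSMUSG00000075316, chromosome 2, 66480080 to 66634962, GRCm38). It went from 46.2 to 28.6 CPM in pair 1, from 10.7 to 4.09 in pair 2, from 166 to 63.7 in pair 3 and from 153 to 76.3 in pair 4. The Nfib library was the lower one in all 4 pairs, while the groups overlapped. The means were 93.97 ± 77.2 CPM with empty vector and 43.2 ± 32.9 CPM with Nfib (SD, n = 4). Within-pair log2 ratios were -0.69, -1.37, -1.38 and -1.005 in pairs 1 to 4, so the fall was present in both old pairs and both new pairs. The paired log2 fold change was -1.11 ± 0.15 (SE, DESeq2 adjusted p of 9.57e-10). The call held when any 1 of the 4 pairs was left out. With the replicate block, edgeR gave an unadjusted p of 0.000218 and an adjusted p of 0.117, which does not pass.

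The share of Scn9a in the summed sodium α level per kilobase was lower with Nfib in each pair. This share is computed from the same Scn9a values and is not separate support. It was 15.2% against 8.97% in pair 1, 6.16% against 2.65% in pair 2, 34.6% against 15.9% in pair 3 and 27.9% against 17.7% in pair 4. Exons of Gm13629 overlap 180 bases (1.41%) of the Scn9a exon length.

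**Figure D3:**
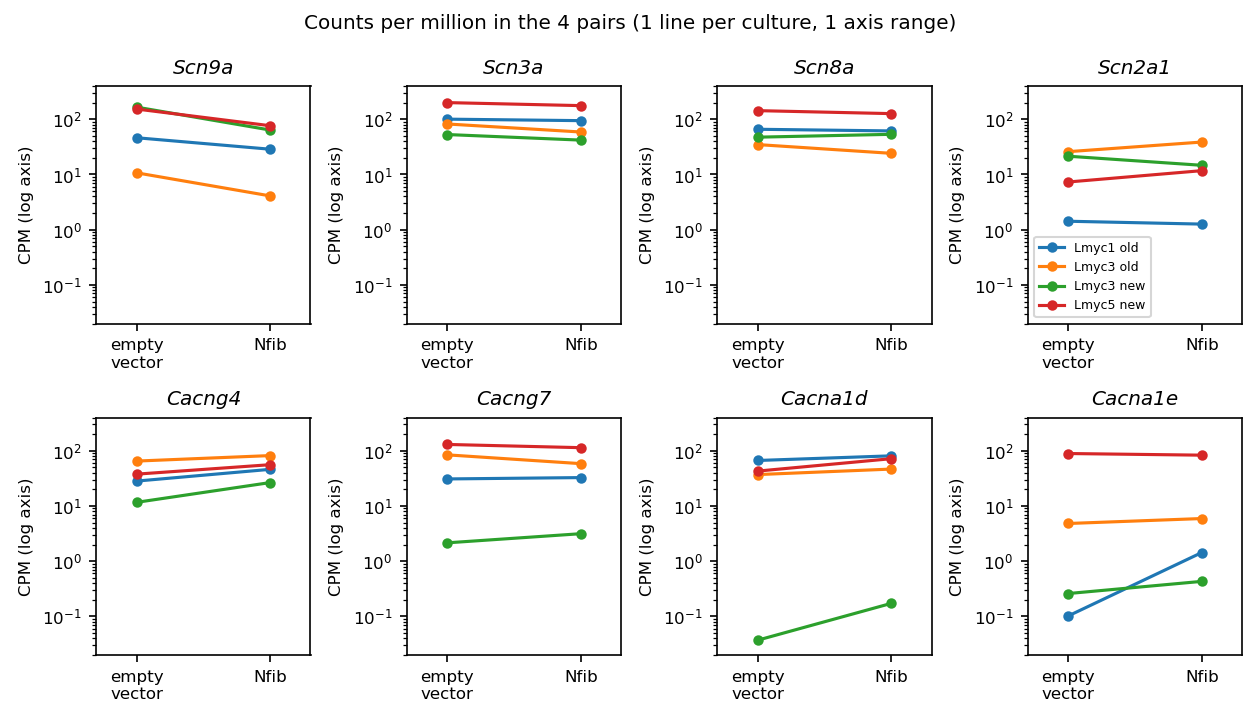
CPM on a log axis with empty vector and with Nfib for 8 channel genes, 1 line per culture and the same axis range in every panel. All 4 lines slope down for Scn9a and up for Cacng4, while the cultures differ far more than the vectors for Cacng7, Cacna1d and Cacna1e.

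Scn9a lies in a group of 5 sodium α genes on chromosome 2, between 65457118 and 66784914, with Scn3a, Scn2a1, Scn1a and Scn7a. Its tested neighbours did not pass. Scn3a was lower in all 4 Nfib libraries, with ratios of -0.09, -0.48, -0.33 and -0.18 and an estimate of -0.28 ± 0.10 (DESeq2 adjusted p of 0.0898). Scn2a1 had ratios of -0.16, 0.58, -0.54 and 0.68 and Scn1a of 0.26, 1.47, -1.38 and 0.34, with opposite signs in pairs 2 and 3 for both. Scn7a was not tested. Whether the change of Scn9a differs from those of its neighbours was not tested.

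Cacng4 was the channel gene that rose (ENSMUSG00000020723, chromosome 11, 107732357 to 107794557). It went from 28.2 to 46.1 CPM in pair 1, from 65.00 to 81.8 in pair 2, from 11.6 to 26.6 in pair 3 and from 37.7 to 55.9 in pair 4, higher with Nfib in every pair, again with overlapping groups. The means were 35.6 ± 22.3 CPM with empty vector and 52.6 ± 22.96 CPM with Nfib (SD, n = 4). Its log2 ratios were 0.71, 0.33, 1.19 and 0.57, and the paired log2 fold change was 0.68 ± 0.17 (SE, DESeq2 adjusted p of 0.00459). The call held in 2 of the 4 fits on 3 pairs, with an adjusted p of 0.0688 without pair 1 and 0.0512 without pair 4. With the replicate block, edgeR gave an adjusted p of 0.177. Its neighbour Cacng5 was higher in all 4 Nfib libraries at low levels, from 1.22 to 4.09 CPM in pair 1, from 0.802 to 1.65 in pair 2, from 1.48 to 2.16 in pair 3 and from 3.79 to 5.03 in pair 4, without passing (0.91 ± 0.40, DESeq2 adjusted p of 0.228). Cacng1, on its other side, had at most 1 count in any library.

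**Figure D4:**
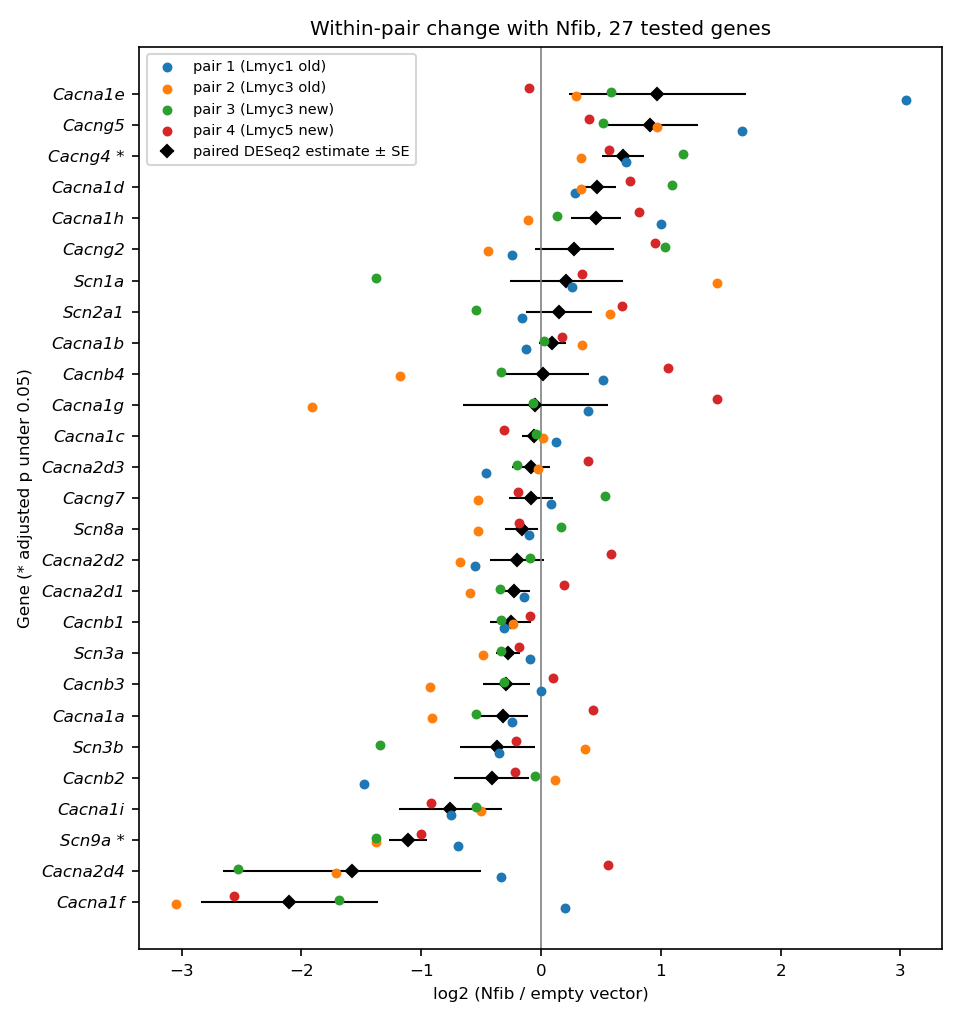
Within-pair log2 ratios of Nfib to empty vector for 27 of the tested channel genes (colored points, 1 per pair) with the paired DESeq2 estimate and its SE (black diamonds and bars), sorted by estimate. The starred genes Scn9a and Cacng4 are the 2 that passed, and most other genes have points on both sides of 0.

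The same sign in all 4 pairs was seen for 7 of the 28 (25.0%) and for 25.6% of all genes tested, close to the background. Beside Scn9a and Cacng4 these were Cacna1d and Cacng5, both higher, and Scn3a, Cacna1i and Cacnb1, all lower. Cacna1i had an estimate of -0.76 ± 0.43 (DESeq2 adjusted p of 0.448) and Cacnb1 of -0.25 ± 0.17 (0.572).

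Cacna1d had ratios of 0.28, 0.33, 1.09 and 0.75 and an estimate of 0.47 ± 0.16 (DESeq2 adjusted p of 0.0737). The ratio of 1.09, in pair 3, rests on 1 count against 4, near the limit of 3 counts. Under alternatives the call of Cacna1d changed. It passed when total counts set the library sizes (0.51, adjusted p of 0.0484) and when the Lmyc3 pairs were summed (0.49, adjusted p of 0.0222). Its exons overlap those of Chdh, a choline dehydrogenase on the opposite strand, over 589 bases (4.67% of the Cacna1d exon length). Chdh went from 0.0339 to 0.609 CPM in pair 1, from 0.472 to 7.02 in pair 2, from 0 to 0.172 in pair 3 and from 0.225 to 3.51 in pair 4, so it too was higher in each Nfib library. Chdh had fewer reads than Cacna1d in every library but the Nfib library of Lmyc3 new, where both had 4 counts. The part of Chdh in the Cacna1d values was not tested.

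Calls of 3 more genes appeared only with 1 pair left out. Cacna1f, at -2.10 ± 0.74 (DESeq2 adjusted p of 0.0836), passed only without pair 1 (-3.02, adjusted p of 0.0352). Cacna1h, at 0.46 ± 0.21 (0.268), passed only without pair 2 (0.64, adjusted p of 0.0340), and Cacna1a, at -0.32 ± 0.21 (0.563), only without pair 4 (-0.56, adjusted p of 0.0427). In pair 4 Cacna1a was higher with Nfib, against a lower value in the other 3 pairs. For the abundant auxiliary genes the estimates were -0.23 ± 0.14 for Cacna2d1, -0.08 ± 0.16 for Cacna2d3 and -0.29 ± 0.20 for Cacnb3, with DESeq2 adjusted p-values of 0.486, 0.924 and 0.579.

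Genes whose products bind or regulate these channels were examined as 3 lists. The sodium channel list held 18 genes for fibroblast growth factor homologous factors, ankyrins and other scaffold proteins, and calmodulins, of which 17 were tested. In the paired DESeq2 test 1 rose and 1 fell, against the same background as above (1.86% and 2.20% of all genes). Calm2, a calmodulin gene, had a mean of 710.0 CPM. Ank3, which anchors sodium channels at the axon initial segment, was lower in all 4 pairs (-0.40 ± 0.13, DESeq2 adjusted p of 0.0506) without passing. The list's median log2 fold change was -0.19.

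The calcium channel list held 23 genes for channel inhibitors, active zone and release proteins and kinases, of which 21 were tested, with 1 that rose and 3 that fell in the paired DESeq2 test (background again 1.86% and 2.20% of all genes). Rimbp2, which tethers calcium channels at release sites, changed by -0.59 ± 0.15 (DESeq2 adjusted p of 0.0054) and went from 120.2 to 86.7 CPM in pair 1, from 55.6 to 48.98 in pair 2, from 172 to 88.1 in pair 3 and from 39.3 to 24.3 in pair 4. Syt1, the calcium sensor of vesicle fusion, changed by -0.50 ± 0.15 (0.0308) and went from 438 to 382 CPM in pair 1, from 104 to 57.4 in pair 2, from 455 to 415 in pair 3 and from 345 to 197 in pair 4. Snap25, a SNARE protein of the same machinery, changed by -0.33 ± 0.09 (0.0117). These 3 were lower in all 4 pairs. Camk2b, a calcium and calmodulin-dependent kinase subunit, rose by 0.64 ± 0.20 (DESeq2 adjusted p of 0.0454). On 3 pairs, Rimbp2 and Syt1 each passed in 2 of the 4 fits, and Snap25 and Camk2b in 1. The genes with most reads were Syt1 (299 CPM) and Ppp3cb, a calcineurin subunit (225 CPM). The list's median was -0.09. With the replicate block, edgeR called none of the genes of these lists.

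The sodium leak channel, a relative of these pores that sets resting excitability, was present as well. Unc80, a scaffold of that channel, had a mean of 232 CPM and Nalcn, its pore, 116 CPM, and 0 of the 4 tested genes of this complex rose or fell.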

How the data were processed

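RNA-seq libraries were prepared with the TruSeq RNA kit, per the labels' protocols, whose extraction text otherwise describes tumor tissue DNA. TopHat2 2.1, Bowtie 1.0.0, SAMtools 0.1.19, DESeq2 and the build GRCm38 (mm10) are the names that the submitters' processing notes give. Which program counted reads, with which strand setting and annotation, is not given in the sources used here, so reads of overlapping or antisense genes cannot be told apart. The authors deposited whole-number read counts per gene, not normalized. One further allele of the labelled genotype and the values of some channel and partner genes are not reported here, while counts and class sums include those genes.

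Counts were analysed with edgeR 4.0.16 and DESeq2 1.42.0 in R 4.3.3, with limma 3.58.1 (voom) as an alternative. Genes passed edgeR's expression filter by group (13380 of 22691). The primary test was edgeR's quasi-likelihood test (original form, TMM) without pairs. DESeq2's Wald test with the replicate number as a block gave the within-pair calls. Benjamini-Hochberg adjustment ran over all genes tested, at 0.05. DESeq2 left 260 adjusted p-values undefined, none of them of a channel gene. CPM use TMM-scaled library sizes. For each pair's log2 ratio a prior count of 2 was added. CPM per kilobase use merged exons of GENCODE M21 (GRCm38).

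The labels pair the libraries by culture. Deviations from the group means correlated across genes with r of 0.908, 0.884, 0.935 and 0.929 within pairs 1 to 4, and at most 0.0647 otherwise.

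The members, lists and tests were chosen with earlier results of these data known. Named genes were those called by a paired test and the 2 highest per kilobase in each class and culture. Members with 1 sign in 4 pairs, of at least 1 CPM or below the low-count filter were named too. Of the partners in each list, the called or 2 most abundant were named. Tried as alternatives were other tools, no block, other normalizations, no low-count filter, other gene lengths, the Lmyc3 pairs summed and each pair left out.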

Additional observations from a re-analysis of the deposited data

Results flagged for a closer look

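For the 28 tested channel genes, 56 groups of 4 libraries of 1 arm and 28 sets of 4 within-pair ratios were examined. In 6 of the 56 groups and in none of the 28 sets, the highest or lowest value lay far from the other 3 by Dixon's test. Chance alone gives about 1 in 20 for independent values of 1 normal population, a condition the 56 groups do not meet. The 4 libraries of an arm are different cultures and both arms share them, so 6 of 56 is not read as an excess. The share over all genes was not counted. Cacna1e was highest in Lmyc5 new in both arms, at 89.1 CPM with empty vector and 83.2 CPM with Nfib. Cacna1g stood at 28.3 CPM in the empty vector library of Lmyc3 old. Cacna1f stood at 8.84 CPM in the Nfib library of Lmyc1 old, and Cacnb4 at 23.6 CPM in the Nfib library of Lmyc5 new. Cacnb2 was lowest among empty vector libraries in Lmyc3 old, at 7.08 CPM.

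In 2 of the 28 tested genes the within-pair log2 ratio had 1 sign in both old pairs and the opposite in both new pairs. This difference was not tested, and how many of all genes show the same pattern was not counted. The new minus old difference in mean within-pair log2 ratio was 1.34 for Cacng2 and -0.24 for Cacna1c. For Cacna1c the ratios of pairs 2 and 3 were 0.017 and -0.039, near 0.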

How the results depend on the processing

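DESeq2 within pairs called 1 channel gene higher and 1 lower. Each count was 0 with DESeq2 and no replicate block, and 0 with the replicate block in edgeR, in edgeR's bias-adjusted form (Scn9a adjusted p of 0.0519) and in limma voom (0.0585). Higher calls were 2 with total counts and 2 with the Lmyc3 pairs summed. Leaving out 1 pair gave 0 to 2 higher and 1 to 2 lower. Over all genes, calls were 543 within pairs, 3 without the replicate block, 0 with edgeR, 44 with its bias-adjusted form, 3 with voom and 234 to 382 without 1 pair. In the 3 partner lists, 2 rose and 4 fell, against 0 and 0 with edgeR, and 0 to 1 and 1 to 4 without 1 pair. The unpaired edgeR counts were 0 under every alternative run, the replicate block included. Calls between cultures numbered 22 to 24 of 27 or 28 channel genes without 1 pair. In these fits 7792 to 8810 of all genes were called, with 13264 to 13357 tested. In the other alternatives 26 channel genes were called, and 10266 to 10916 of all genes. The leading gene was unchanged in 21 of 24 class-by-culture cases with either other gene length, and in 23 with the empty vector libraries alone, an alternative chosen after seeing the data.

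Of 322 fold changes of single channel genes under alternatives, 296 kept their direction and call and 11 changed sign, none of them called. Cacna1e was -0.056 without the replicate block, and Cacna1g 0.025 with the Lmyc3 pairs summed. With 1 pair left out in turn, the range was -0.12 to 0.031 for Cacna1c, -0.64 to 0.70 for Cacna1g, -0.23 to 0.046 for Cacna2d3, -0.34 to 0.42 for Cacnb4, -0.22 to 0.072 for Cacng7, -0.23 to 0.72 for Scn1a and -0.036 to 0.43 for Scn2a1. The cause was not tested. The fits rest on 4 pairs from 3 lines. Counts under 3 limit what other, low genes such as Cacna2d4 can show. Among the genes that changed sign, the lowest count in a library was 3, for Cacna1e, and Cacna1c had between 1702 and 3084.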
